A study of Mus musculus with 2 samples.

Results

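A pair of tandem arrays on mouse chromosome 10 was far more covered by RNA-seq reads in embryonic stem (ES) cells with an active 2C::tomato reporter than in cells without it. The members were all covered blocks, meaning runs of bases with a read depth above 0 in either coverage track, from 99760001 to 99860000 and from 103600001 to 103640000 of chromosome 10 (build mm9). There were 134 such blocks of 801091 in the genome, 97 in the first region, called the proximal array here, and 37 in the second, the distal array. The regions had been chosen because the reporter-positive library was higher in them, so the differences between libraries below are a description and carry no test.

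The study sorted ES cells by flow cytometry into 2C::tomato+ and 2C::tomato- cells and sequenced messenger RNA from 1 library of each. Both populations came from the same mixed-strain ES background, Kdm1a FL/FL with CreERT, grown on gelatin under hygromycin. They therefore share the floxed alleles of Kdm1a, which encodes the histone demethylase LSD1, and differ in the state of the reporter only as far as the labels say. Neither the number of ES clones nor any induction of the Cre enzyme is stated for these libraries. The labelled cell type was not checked against marker genes, because the annotation at hand belongs to another build. The positive library held 37059813 alignments of 72 bases and the negative library 33833215.

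The 2C::tomato reporter is a red fluorescent protein under the control of regulatory sequence of MuERV-L, an endogenous retrovirus that is transcribed in the 2-cell embryo. A small, changing share of cultured ES cells switches this sequence on and then carries transcripts otherwise known from the 2-cell embryo. Several genes of that stage lie in tandem arrays, in which a stretch of chromosome with a gene has been duplicated many times over. Copies of such an array can be so alike that a short read matches several of them, and an aligner may then list the read at each.

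The gene models behind the arrays were looked up by spacing alone. In the GENCODE M21 annotation of another build, GRCm38, only 1 group of at least 3 genes on chromosome 10 had neighbours spaced within 1% of the unit length of each array. For the proximal array these were Gm4898, Gm8701, Gm4301, Gm4302, Gm4303, Gm4305, Gm8711, Gm4307 and Gm4308, and for the distal array Gm21293, Gm6763, Gm8764, Gm21304, Gm21312, Gm20765 and Gm4340. A further 6 models that share long runs of letters with them, Gm8689, Gm9476, Gm4310, Gm8723, Gm4312 and Gm4781, lie beside the first group and were added after the values were seen. The sequences below are GENCODE transcript letters, written 5′ to 3′, and were not read from the libraries. Transcript positions count from 1 at the first base of the model.

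A stretch near the start of the coding part, which leaves out the first letters of that part in Gm8764, shows how alike the arrays are. The lines hold positions 151 to 270 of the Gm8764 transcript (distal array) and 37 to 156 of the Gm4303 transcript (proximal array), with the 7 letters that differ in capitals.
Gm8764: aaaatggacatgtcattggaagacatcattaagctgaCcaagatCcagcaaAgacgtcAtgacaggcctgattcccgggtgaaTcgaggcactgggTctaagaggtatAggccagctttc
Gm4303: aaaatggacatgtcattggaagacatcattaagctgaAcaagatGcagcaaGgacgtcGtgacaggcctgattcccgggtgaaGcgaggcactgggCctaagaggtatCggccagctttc
Over their whole alignment the 2 transcripts had the same letter at 95.7% of 835 paired positions, with 75 gap positions. All 75 lay in a run of CAG-like triplets near the end of the coding part, shown here in capitals between a common start and a common end.
Gm8764: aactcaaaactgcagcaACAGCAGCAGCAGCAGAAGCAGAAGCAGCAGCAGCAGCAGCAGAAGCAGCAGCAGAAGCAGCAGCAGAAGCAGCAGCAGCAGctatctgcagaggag
Gm4340: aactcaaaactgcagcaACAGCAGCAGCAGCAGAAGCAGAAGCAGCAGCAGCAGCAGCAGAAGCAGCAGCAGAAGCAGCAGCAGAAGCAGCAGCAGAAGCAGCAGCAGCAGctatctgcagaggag
Gm4303: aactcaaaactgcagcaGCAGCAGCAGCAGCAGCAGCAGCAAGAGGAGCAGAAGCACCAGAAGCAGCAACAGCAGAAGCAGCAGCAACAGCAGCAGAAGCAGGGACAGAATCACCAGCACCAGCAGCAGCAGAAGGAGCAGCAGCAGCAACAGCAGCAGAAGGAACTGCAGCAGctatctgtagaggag
The repeat between the common ends was 82 letters in Gm8764, 94 in Gm4340 and 157 in Gm4303. Apart from these 12 extra letters the Gm4340 and Gm8764 transcripts were identical, and the other 5 models of the distal array were identical to Gm8764.

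Both families are relatives of Alyref, which encodes an adaptor that hands spliced messenger RNA to the nuclear export machinery. Local alignments to the Alyref transcript had 85.2% identity for Gm4303, over 555 paired letters, and 84.9% for Gm8764, over 901. One stretch of 87 letters is far closer, and it is shown because most of the negative library's alignments in the proximal array lie on it. Capitals mark the 4 positions at which the 3 transcripts are not all the same.
Gm4303: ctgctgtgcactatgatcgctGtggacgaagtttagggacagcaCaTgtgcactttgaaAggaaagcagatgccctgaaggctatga
Gm8764: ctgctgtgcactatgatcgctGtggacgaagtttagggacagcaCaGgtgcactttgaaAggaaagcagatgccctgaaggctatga
Alyref: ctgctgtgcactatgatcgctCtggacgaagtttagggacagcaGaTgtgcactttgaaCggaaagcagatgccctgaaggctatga
Gm4303 differed from Alyref at 3 of these letters, Gm8764 differed from it at 4, and the 2 array transcripts differed from each other at 1.

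The upstream sequence of the distal models is shown because these models were alike there too. RefSeq promoter sequence (GRCm38.p6) was at hand for 6 of the 7 distal models and for 6 of the 15 proximal models. Of the proximal ones 0 were identical to that of Gm8764. The 250 bases before the start were identical in 4 of the 6 distal models and differed from them by 1 letter in the other 2. The line gives those of Gm8764, on the plus strand, with capitals for a 30-letter word that occurs 2 times, first letters at -126 and -73 from the start, and for TATAA at -30.
Gm8764 promoter: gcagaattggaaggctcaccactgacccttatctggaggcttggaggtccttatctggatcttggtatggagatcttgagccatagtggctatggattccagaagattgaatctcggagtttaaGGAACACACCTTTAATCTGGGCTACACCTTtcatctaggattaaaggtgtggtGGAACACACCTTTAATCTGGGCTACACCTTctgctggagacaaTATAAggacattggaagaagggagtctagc
TATAA was found on either strand in 22.8% of the 32851 promoters of the table, and the 30-letter word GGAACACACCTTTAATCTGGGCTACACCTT, with which it does not overlap here, in 14 of them (0.0426%), including these 6. These 6 are the distal models, and no proximal model is among the 14 with the 30-letter word. These matches describe letters and do not show a binding site.

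Both arrays were covered almost solely in the reporter-positive library. The distal array held 11561 positive and 20 negative alignments, or 0.0312% and 5.91e-05% of all alignments of the track. The proximal array held 22508 and 723, or 0.0607% and 0.00214%. The ratio of shares was 528 (95% interval 342 to 864) for the distal array and 28.4 (26.4 to 30.6) for the proximal array. More cells with these transcripts and more transcript per cell cannot be told apart in sorted bulk samples. Intervals are exact conditional binomial (Clopper-Pearson), cover counting error only, and are too narrow wherever the same read is listed several times. All 4 windows of 10 kb of the distal array and 9 of the 10 of the proximal array had at least 20 alignments, and all 13 exceeded the negative library by 4-fold or more, with an interval above 1. Over the genome, 1.69% of 48349 windows did so, and since the regions were chosen by this contrast nothing is read from the difference.

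The signal of the distal array ended at its edges. The 100 kb before it held 1 positive and 0 negative alignments, and the 100 kb after it held 0 and 2. The proximal array had more alignments around it, with 615 and 485 in the 100 kb before it and 544 and 404 in the 100 kb after. Before it, 405 of the 615 positive alignments overlapped at a single base, so that total mostly describes 1 spot. The totals of the flanks were of a like size in both libraries.

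The distal array repeated every 8509 bases. Stretches of 64 bases whose start counts were identical in both libraries lay 8509 bases from their next occurrence in 1145 of 1993 cases, and the other cases were mainly 8508 or 8521 bases apart. The array held 4 copies, all in the forward direction. In the proximal array the most frequent distance was 5121 bases, but it accounted for only 498 of 3154 cases (15.8%). That array held 15 copies, 9 forward (copies 3 to 11) and 6 reverse (copies 1, 2 and 12 to 15), so it consists of a forward block between reverse copies. No identical stretch was found anywhere outside both regions.

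Positions of the copies could be set against the GRCm38 models by distance. In 14 of the 15 proximal copies the 16 start positions described below mark the same point of the sequence. The distance to the next copy was available for 12 neighbouring pairs, and all 12 equalled the distance between the corresponding letters of the models to the base. From copy 4 to copy 11 these distances were 5159, 5159, 5134, 5121, 5124, 5121 and 5164 bases. The wider ones were 8542 bases from copy 1 to copy 2 and 14533 from copy 14 to copy 15. All 15 directions also matched the strand of the model, in the order Gm8689, Gm9476, Gm4898, Gm8701, Gm4301, Gm4302, Gm4303, Gm4305, Gm8711, Gm4307, Gm4308, Gm4310, Gm8723, Gm4312, Gm4781. The annotation counts 6 of the 15 as protein coding and 9 as unprocessed pseudogenes, copies that arose by duplication of the chromosome and are held not to encode a protein. The 7 distal models, all protein coding, are spaced 8509 or 8510 bases apart in GRCm38, while coverage on mm9 showed 4 copies, so these could not be paired one by one.

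**Figure D1:**
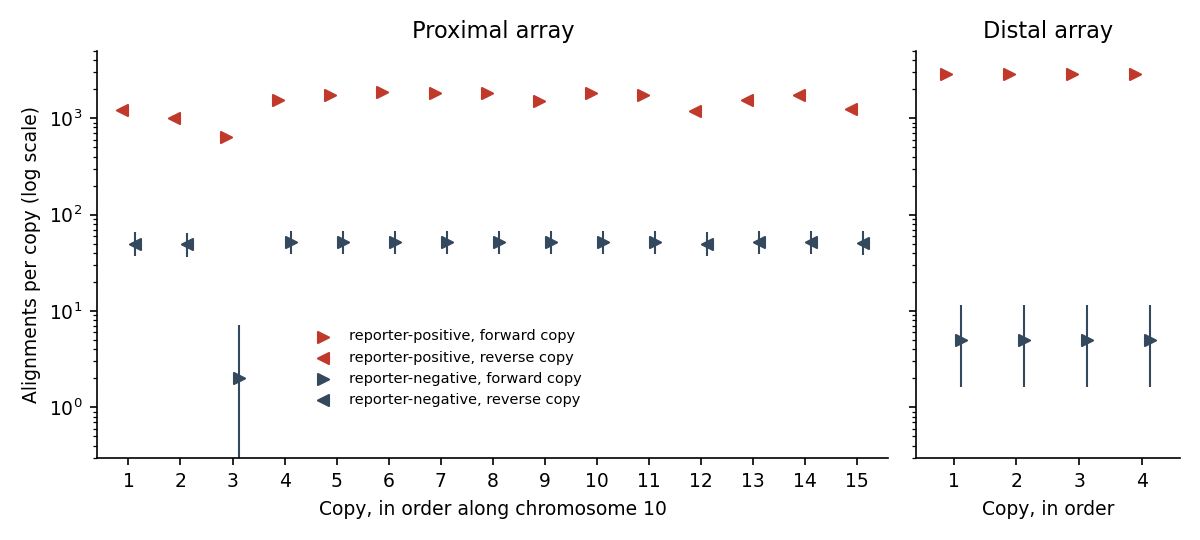
Alignments per copy (log axis) in the reporter-positive and reporter-negative library, for the 15 copies of the proximal array and the 4 of the distal array, with exact Poisson 95% counting intervals and arrowheads for the direction of the copy. Positive counts run from 637 to 1845 in the proximal and from 2887 to 2891 in the distal array, and copy 3 is the lowest of its array in both libraries.

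The copies of the distal array were nearly the same as each other. Copies 1, 2 and 3 each held 2887 positive and 5 negative alignments, and the start counts of their main block were identical at every base. Copy 4 held 2891 and 5. Its main block was 1217 bases long against 1205 in the others, a difference of 12 bases, which is also the length by which the repeat of Gm4340, the last model of the distal group, exceeds that of the rest. Copies 1, 2 and 3 thus show 1 profile and cannot be counted as separate measurements, and copy 4 shows a second that differs from it by few alignments.

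The copies of the proximal array differed more. They held 637 to 1845 alignments in the positive library (median 1527), with 10 distinct profiles among the 15 copies. Copies 7, 8 and 10, which stand beside Gm4303, Gm4305 and Gm4307, were identical at every base of the main block, with 1843 alignments each. Copies 5, 11 and 14 (Gm4301, Gm4308 and Gm4312) formed a second such group, with 1743 each. Copies 4 and 13 (Gm8701 and Gm8723) formed another, with 1527 each, although copy 13 runs in the reverse direction. Copy 6 (Gm4302) was the highest, with 1845, and copy 9 (Gm8711) held 1502.

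The remaining 5 copies were lower and partly broken up. Copy 15 (Gm4781) held 1238 alignments in 1 block of 654 bases, and copy 1 (Gm8689) held 1228, nearly all in 1 block of 555 bases. Copy 12 (Gm4310) held 1176, mainly in blocks of 582 and 468 bases, and copy 2 (Gm9476) held 1011 in blocks of 384 and 117 bases. Copy 3 (Gm4898) held 637 alignments in 3 blocks of 97, 135 and 201 bases, with 153, 266 and 211 alignments. The 6 copies beside protein-coding models held 1743 to 1845 alignments and the 9 beside pseudogene models held 637 to 1743, and the ranges meet at copy 11, whose model is a pseudogene and whose profile is that of copies 5 and 14.

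Within a unit the reads lay in 1 place. Between 98.9% and 100% of the positive alignments of each proximal copy, and 99.2% in each distal copy, were in the named blocks, those with at least 5% of the alignments of the copy. In 12 of 15 proximal copies and in all 4 distal copies this was a single block. In the full proximal copies it was 1235 to 1295 bases long with a peak depth of 325 to 353, and the peak was 349 in every distal copy. The rest of each unit was empty or nearly so. The 100% belongs to copy 15, whose unit is cut off upstream by the region's end.

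The block was set beside the second exon of the gene model. The Gm8764 model has a first exon of 106 bases, an intron of 1222 bases and a second exon of 1140 bases with the whole coding part of 792 bases. The transcript letters were placed on the start counts at the offset where starts at 29 windows of 72 letters identical in Gm8764 and Gm4303 were equal in number (134 alignments in each copy, with 0 unequal) and starts at 311 windows with more than 3 differences were least alike. That offset put the second exon 107 bases after the first start of the main block, and the distal block then ended 42 bases before the exon end. All offsets from 90 to 108 had 0 unequal starts, so the choice rested on the 311 windows. These had 50 starts in common at 107, against 68 at 106 and 67 at 108. Only offsets of 40 to 180 bases were tried, so that block and exon overlap was set by the search. The coding part then held 84.9% of the starts of the distal block (2431 of 2864) and 83.0% of those of proximal copy 7 (1524 of 1837). It took up 795 start positions in the distal copy and 870 in copy 7, with 133 before it and 323 after it in each. In copy 7 its place was carried over from Gm8764 with 75 bases added, not taken from the Gm4303 model. Starts past the coding part numbered 334 in the distal copy and 217 in copy 7.

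Upstream of the main block the distal copies held little but ordered signal. Each had 6 short blocks with 23 positive and 0 negative alignments. The farthest, 74 bases long with 5 alignments in every copy, lay over part of the place of the first exon and ran a few bases past its end, for instance 103605608 to 103605681 in copy 1. The start of the Gm8764 transcript is not specific to the array. Its windows starting at letters 1 to 39 came within 3 mismatches of many other transcripts, spread over many chromosomes. Examples are Olfr1506 on chromosome 2, Limch1 on chromosome 5, Gm38947 on chromosome 7 and Gm48799 on chromosome 13. Whether these 5 alignments came from the array was not tested. Alignments in these tracks have no gaps, so reads that join both exons are not among them. Proximal copies had 0 to 7 positive and 0 negative alignments within 1300 bases upstream. Copy 15 lies so close to the region's end at 99860000 that only part of its 1300 upstream bases was seen.

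**Figure D2:**
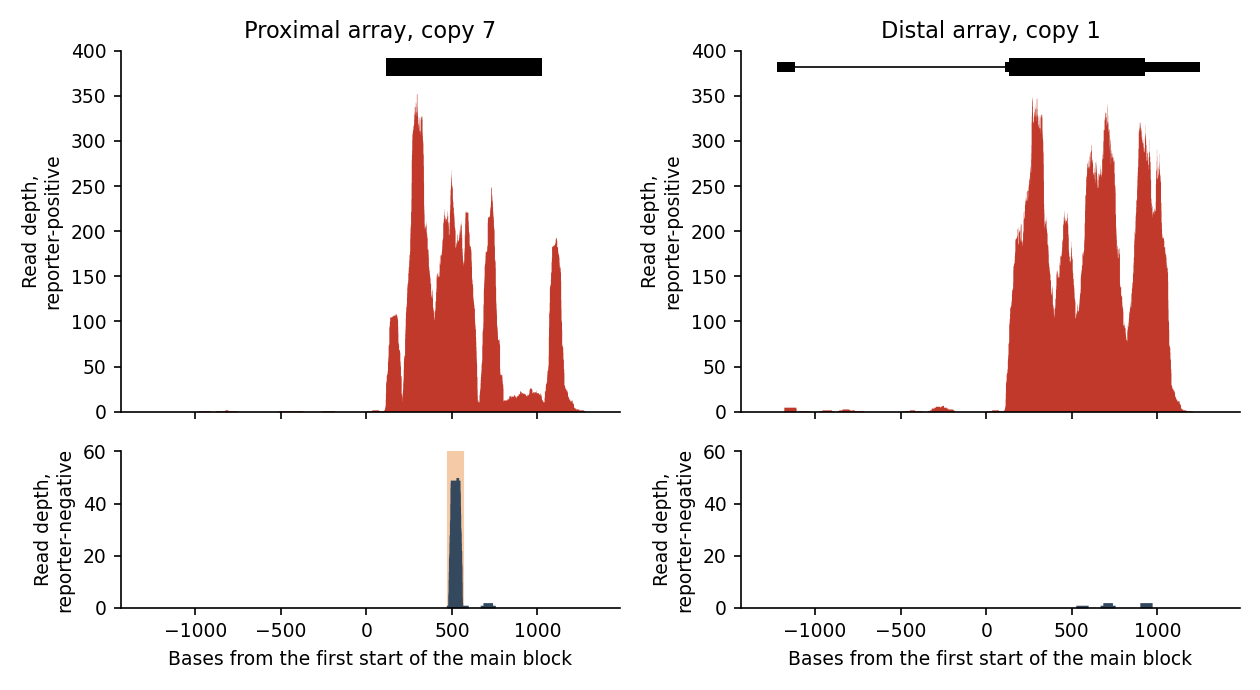
Read depth in the reporter-positive (upper panels) and reporter-negative library (lower panels, own scale) by distance from the first start of the main block, for proximal copy 7 and distal copy 1. Black bars show the Gm4303 transcript and the exons of Gm8764 with its coding part thicker, and the shaded band marks the 87 bases covered by starts near Alyref, where the negative depth of copy 7 reaches 50.

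Proximal copy 7 shared most of its start counts with the distal array. Offset by offset, 1679 starts of the positive library could be shared between proximal copy 7 and distal copy 1, which is 91.4% of the 1837 in copy 7 and 58.6% of the 2864 in the distal block. A remainder of 158 starts was left to copy 7 and 1185 to the distal copy. This comparison was made for copy 7 only. In copy 15, 1131 of 1238 alignments, and in copy 3, 426 of 637, lay in no stretch found at a second place. That measure needs identical start counts over 64 bases, so it does not show that these reads were listed at 1 place only. Copy 15 held 91 positive and 48 negative starts at the 16 positions described below, the same as copy 7. By the letters compared below, 1148 of its positive starts were within 3 mismatches of the distal models or Alyref, and 26 were beyond. Downstream of the repeat the profiles of copy 7 and the distal copy matched after a shift of 75 bases, the same length by which the repeat of Gm4303 is longer. By the stricter measure of identical stretches of 64 bases, 16.8% of the alignments of the proximal and 12.6% of those of the distal array lay in stretches of the other array, and 6.50% and 7.23% with stretches 2 times as long.

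Letters that tell the arrays apart were therefore compared next. Windows of 72 letters of a transcript model were each given the fewest mismatches at which they occur in the models of the other array or in Alyref, on either strand. All windows of the proximal models were used, but only part of those of Gm8764. The distal windows used held 1728 and 489 of the 2864 starts of the block, so the arrays are compared over unlike parts of the models. Among windows within 3 mismatches, the distal copy had 3.29 starts per window (1728 over 526 windows) and proximal copy 7 had 3.30 (1494 over 453). Among windows with 4 or more mismatches, the distal copy had 2.19 starts per window (489 over 223) and copy 7 had 0.215 (83 over 386). The distal copy thus had 10.2 times as many (8.07 to 13.03) beyond 3 mismatches, and about as many within 3, a class in which 48 of the 526 distal windows were identical and the rest differed by 1 to 3 letters. The transcripts had been placed at the offset where windows with more than 3 differences were least alike in the positive library, so this contrast is in part set by that choice. The negative library was not used for the placement. Over the 6 copies beside protein-coding models this ratio ran from 10.2 to 12.6.

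The same held for every proximal copy. Starts per window lay between 2.86 and 3.65 within 3 mismatches and between 0.00328 and 0.215 beyond. At 7 or more mismatches the distal copy had 118 starts over 72 windows, and proximal copies had 0 to 98 starts over 153 to 569 windows. The negative library had 0 alignments at windows of 4 or more mismatches in the distal copy and 1 in all 15 proximal copies together. From which copies the reads were transcribed was not tested, and no source used here gives the aligner's settings on mismatches and repeated reads.

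**Figure D3:**
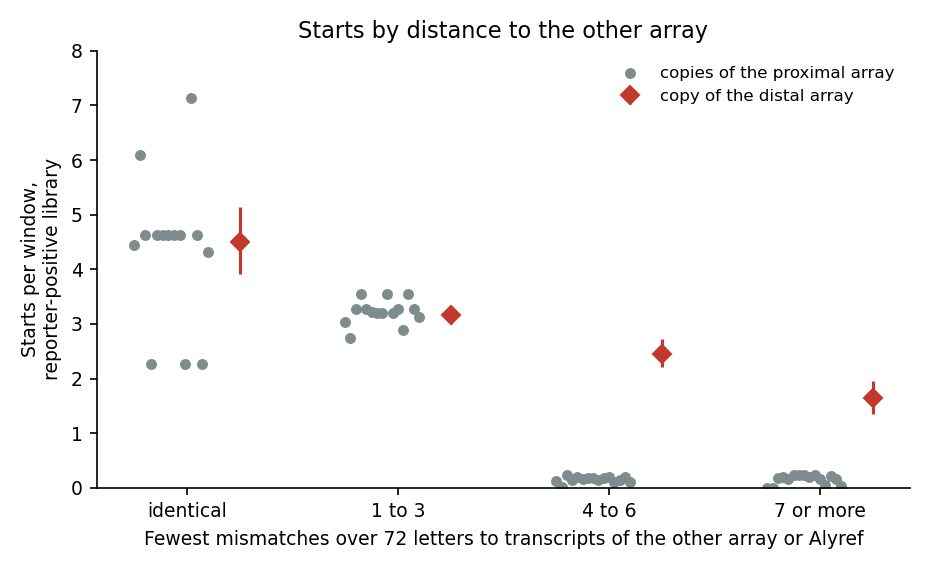
Starts per window of 72 letters in the reporter-positive library, by the fewest mismatches of the window to transcripts of the other array or of Alyref. Grey points are the proximal copies with windows in the class, drawn in order along the chromosome. Red diamonds are a distal copy, over part of its model, with its Poisson 95% counting interval. The groups overlap up to 3 mismatches, and from 4 mismatches on every proximal copy lies at or below 0.228 starts, under the distal copy's 2.46 and 1.64.

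How many alignments a proximal copy held followed how much of its model lies near the distal array or Alyref. The number of windows within 3 mismatches ran from 91 in copy 3 to 455 in copy 6, the copies with the fewest and the most alignments. Over the 15 copies Pearson's r was 0.904 and Spearman's rho 0.899, and r was 0.845 over the 14 copies other than copy 3. This is a description across copies of 1 library that share most of their reads, and the models differ in length, from 696 to 927 letters. Copies 7, 8 and 10 have the same pair of values, as do copies 5, 11 and 14, and copies 4 and 13, so the 15 points are not separate. The alignments of a copy also include those starting at the windows counted, for instance 1494 of 1843 in copy 7.

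**Figure D4:**
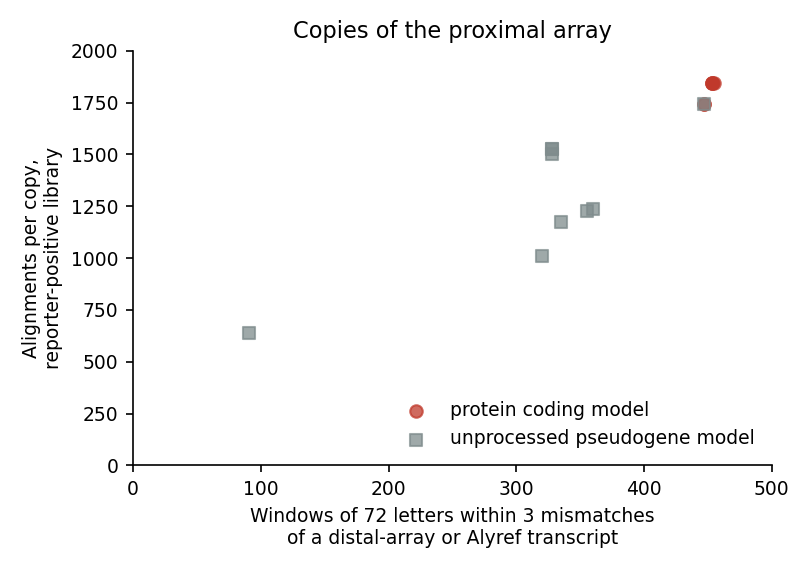
Alignments of each proximal copy in the reporter-positive library against the number of 72-letter windows of its model within 3 mismatches of a distal-array or Alyref transcript, by annotated type. Copies beside protein-coding models sit at 447 to 455 windows and 1743 to 1845 alignments, and copy 3 sits alone at 91 windows and 637 alignments.

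The negative library's alignments in the proximal array lay mostly on 1 short stretch. Of the 52 negative alignments in copy 7, 48 started at 16 adjacent positions, 476 to 491 bases after the first start of the block, which cover the 87 letters shared with Alyref above. These 16 are exactly the windows at which the Alyref transcript is within 3 mismatches of Gm4303. Over 72 letters it is never closer than 4 mismatches to Gm8764, and the distal copy had 14 positive and 0 negative starts at these positions. In the positive library copy 7 had 91 starts there.

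The same start counts recurred elsewhere in the genome. All 14 proximal copies other than copy 3 held 91 and 48 starts at these positions. Outside the arrays, a search for windows of 16 positions that follow the proximal excess over the distal array in both libraries among windows with 60 to 200 positive and at least 40 negative starts, found 3 places with a correlation above 0.9, the lowest at 0.946, against 0.786 for the next best place. A pair of places on chromosome 1, starting at 31034393 and 31055333, held 87 and 48 starts each, with negative counts identical to those of copy 7 at all 16 positions. The third, starting at 120457261 on chromosome 11, held 85 and 54. Within 1 kb either side, the chromosome 11 place held 1067 positive and 971 negative alignments, so it was covered to a like extent in both. Alyref is on chromosome 11 in the annotation of GRCm38, but the place was not assigned to a gene because its coordinates are mm9.

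**Figure D5:**
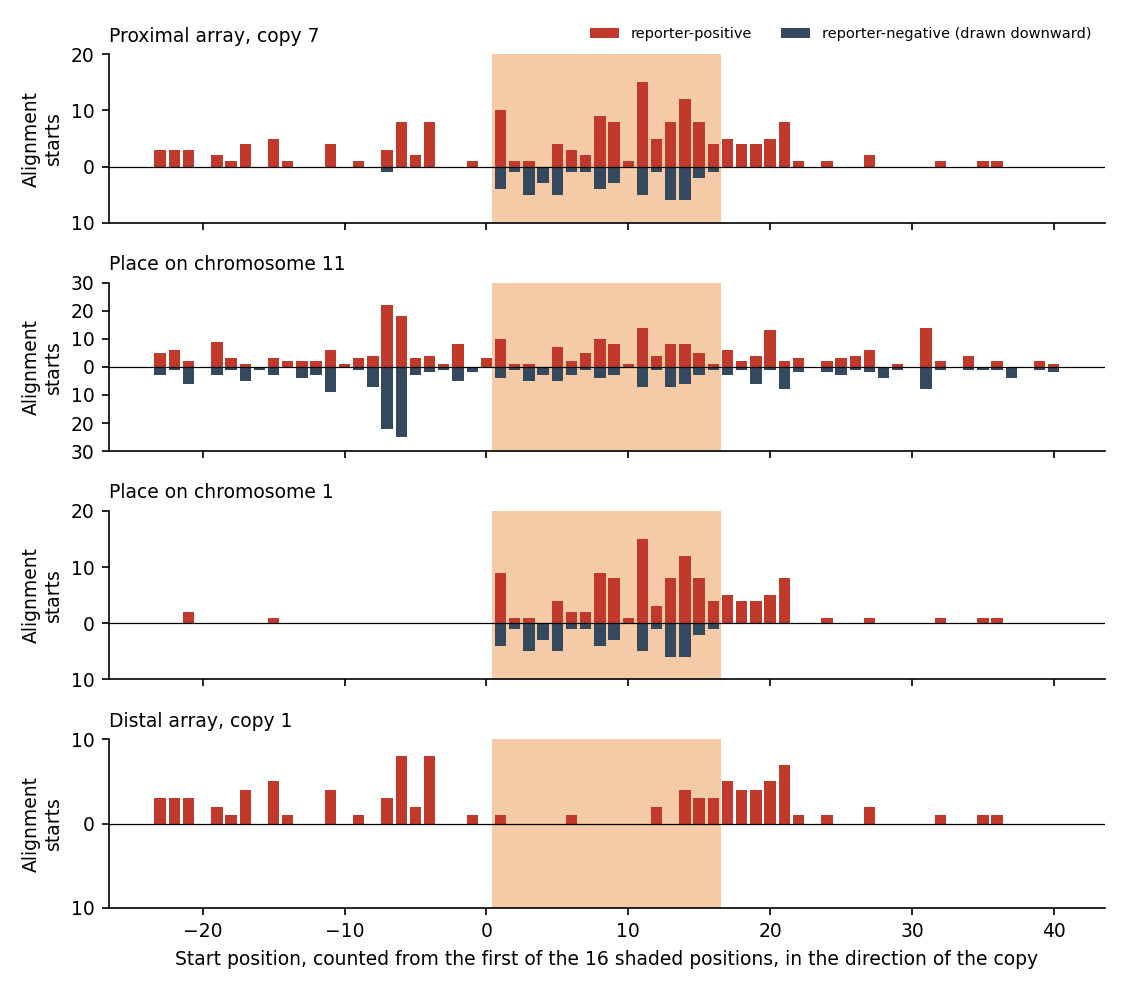
Alignment starts per position around the 16 positions near Alyref (shaded), with the reporter-positive library upward and the reporter-negative library downward. In the shaded band proximal copy 7 (91 and 48 starts), the chromosome 11 place (85 and 54) and the first chromosome 1 place (87 and 48) follow each other, while distal copy 1 holds 14 and 0.

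These positions were singled out after their negative counts were seen, so leaving them out lowers the negative count by construction, and the values that follow only describe the rest. The 16 positions of 14 copies held 672 of the 723 negative alignments of the proximal array (92.9%) but 1274 of its 22508 positive ones (5.66%). At these positions the ratio of shares was 1.73 (1.58 to 1.90), an interval that counts the same starts in each of the 14 copies. Counted in 1 copy only, 91 against 48, the interval was 1.21 to 2.51. Leaving them out, 21234 alignments stood against 51, a ratio of 380 (289 to 511), beside 528 (342 to 864) for the distal array. Both intervals are too narrow, because alignments listed at several copies are counted at each. In copy 7 alone the rest of the block held 1746 and 4 alignments, a ratio of 398 (155 to 1464), and in distal copy 1 it held 2850 and 5, a ratio of 520 (223 to 1604). These intervals overlap. The part that reads of other loci play in the counts of the proximal array was not tested.

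Outside all copies, 59 positive and 1 negative alignments were left in the proximal region, and 9 and 0 in the distal one. No block outside a copy reached 5% of its region.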

How the data were processed

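The authors deposited 1 coverage signal track per library on mm9, with read depth per base and no scaling, and Bowtie is named in the submitters' processing notes. No source used here gives its version or settings. Depth was decoded exactly into ungapped alignments of 72 bases, counted by start. Shares are of all alignments in a track (37059813 and 33833215). Copies were anchored by identical start counts over 64 bases (at least 8 positions and 20 starts), and a copy needed 5 such stretches. Ratios carry 95% counting intervals, and reads carry no molecular identifiers. Copies, blocks with at least 5% of a copy and genes spaced within 1% of a unit were named by rule. The other genes were added after values were seen. No test was made, as each population has 1 library. The regions and lists were chosen with earlier results of these data known. Decoding and the stretch search were tested on simulated data. Python 3.11.15 was used, with NumPy, SciPy and Biopython.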

Additional observations from a re-analysis of the deposited data

How the results depend on the processing

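The distal array's ratio of 528 was 155 with each start position counted 1 time, and stayed within its interval with division by the number of places. Median-ratio scaling only divides it by 0.994. Summed depth gives the same ratio by construction, because every alignment has 72 bases, so neither could have moved it far. With repeated stretches left out the distal array had 135 alignments against 0. That is 41.1-fold higher with a floor of 3 counts in place of 0, with an interval that starts at 32.96. Of the 135, copies 1, 2 and 3 held 27 each and copy 4 held 45. Stretches with too few starts to compare stay in, so the same reads can be counted in several copies. The proximal array's ratio of 28.4 was 19.97 with each start position counted 1 time, 40.2 with division by places and 35.5 with repeated stretches left out. It was 380 without the 16 positions near Alyref, an alternative chosen after seeing the data. Of the 2101 positive alignments behind the 35.5, 1131 were in copy 15, which shares start counts with copy 7 at those 16 positions. Leaving out repeated stretches therefore does not leave reads of 1 place only. Unit lengths moved by under 1% in all alternatives. With a depth of at least 10, the 19 named blocks of the proximal array became 33 and their median length fell from 1235 to 257 bases. Counting only stretches found at 1 place, the highest copy stood 62.8 times over the lowest in the proximal array (2.90 otherwise, with 1131 alignments in copy 15) and 1.67 times in the distal array. A stretch counts as found at 1 place once any start count in it differs, or where it holds too few starts to compare. The 62.8 is therefore not a measure of reads specific to a copy. Stretches 2 times as long left 6.50% and 7.23% of alignments shared between the arrays. With at least 50 alignments 374 windows of the genome were 4-fold higher, against 817, and all 13 in the arrays remained. No paired analysis was possible because there is a single library of each population, and none could be left out. The distal ratio rests on 20 negative alignments, 5 in each copy, and copies 1, 2 and 3 share 1 profile. Divided by the number of places, 2741 alignments stood against 5, a ratio of 500 with a wider interval (214 to 1543). The interval of 342 to 864 thus overstates its precision.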

Other observations

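The pair of places on chromosome 1 whose start counts match the proximal array was also more covered in the reporter-positive library. Within 1 kb either side they held 282 and 259 alignments in the positive library and 51 each in the negative library, and 48 of those 51 were at the 16 positions near Alyref. Part of the positive starts there repeat those of proximal copy 7, with equal counts of 5, 4, 4, 5 and 8 at the 5 positions after the 16, so the places are not independent of the array. These places were chosen after seeing the data. In GRCm38, transcripts of chromosome 1 models also come within 3 mismatches of Gm4303, at 124 windows of 72 letters for AC153137.1 and 83 for 4931428L18Rik, against 16 for Alyref, and these names were picked after seeing the result. The places were not assigned to these models.

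The 30-letter word that occurs 2 times before the start of the distal models was also found in 8 further promoters of the RefSeq table, among them those of Sp110 and Pemt, named here after the search. Coverage at those genes was not analysed here.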
